A study of Drosophila melanogaster with 6 samples.

Results

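Messenger RNA of 9 genes of the insulin and TOR signalling pathway was followed in brains of 15-day-old flies fed spermidine, a polyamine, or normal food. The genes were chico, Akt, foxo, Thor, S6k, mTor, raptor, Sesn and REPTOR, taken by their current symbols, and all 9 were found among the 17483 genes of the deposited table. Akt, mTor and REPTOR stand there under the older symbols Akt1, Tor and CG13624. The tested libraries were 3 from flies on normal food with spermidine, set against 3 libraries from flies on normal food alone. All 6 came from hand-dissected brains of w1118, a white mutant stock of Drosophila melanogaster that serves as wild type, so the white mutation was shared by both groups. The labels used here give no dose or length of feeding, no sex, and no number of brains per library.

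In flies, insulin-like peptides bind the receptor InR, which recruits the substrate protein chico and activates PI3-kinase and then the kinase Akt. Akt keeps the transcription factor foxo out of the nucleus and relieves the TSC brake on TOR complex 1, which consists of the kinase mTor, its adaptor raptor and Lst8. This complex phosphorylates S6k, a kinase that promotes translation, and Thor, the fly 4E-BP, which otherwise holds back the cap-binding factor eIF4E. It also keeps the transcription factor REPTOR out of the nucleus, while Sesn, the fly sestrin, restrains the complex under stress and amino acid shortage. The pathway is known for its control of growth, feeding state and lifespan. Much of its regulation is by phosphorylation and localisation, which RNA levels do not measure.

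The authors' mean normalized counts summed to 47904049 for spermidine food and 48052547 for normal food, and the depth of single libraries is not given in that table. Markers of neurons summed to between 1448 and 1463 FPKM on spermidine food and between 1493 and 1555 FPKM on normal food, with nSyb and Syt1 the highest of 5 and 1 (fne) lower past the limma test used below. By the authors' deposited p-values, adjusted as below, 4 of these 5 (elav, nSyb, Syt1 and fne) were lower, where 8.70% of all genes tested were. Mean normalized counts of elav were 21299 on spermidine food and 25659 on normal food. FPKM did not show this for elav, with means of 84.0 on spermidine food and 81.3 on normal food, or for nSyb, with 741 and 740. Those of glia, led by nrv2 and alrm, summed to between 835 and 852 FPKM on spermidine food and between 735 and 841 FPKM on normal food, with none of 5 past the test. Fat body markers summed to between 9629 and 10639 FPKM on spermidine food, against 1909.5 to 2511 FPKM on normal food. Of the 8, 6 were tested and 4 rose (fit, Yp1, Yp2 and Yp3), Yp3 and Yp2 were highest, and Fbp2 was at 0 in all 6 libraries. Most of the sum was Yp1, Yp2 and Yp3, with means of 1340, 3888 and 4162 FPKM on spermidine food. On normal food they had 369, 690 and 977 FPKM. Lsp2 and apolpp averaged 173 and 211 FPKM on spermidine food and 1.57 and 133 FPKM on normal food, without passing (limma, adjusted p = 0.0520 and 0.0930). Fbp1 averaged 0.173 FPKM on spermidine food and 0.216 FPKM on normal food and was not tested. Photoreceptor markers, led by ninaE and ninaC, summed to between 5016 and 7214 FPKM on spermidine food and between 882 and 5692 FPKM on normal food, where replicate 1 stood apart as the lowest. Haemocyte markers, led by Hml and Sr-CI, summed to between 25.1 and 26.2 FPKM against 14.3 to 22.3 FPKM, with 1 of 4 (Sr-CI) higher past the test. Muscle markers, led by up and Tm2, summed to between 6.94 and 22.9 FPKM against 8.82 to 44.8 FPKM, with none of the 4 tested past it. In limma 3.21% of all genes tested were higher and 1.52% lower. By the adjusted deposited p-values 5 of the 6 tested fat body markers and 3 of the 4 haemocyte markers were higher, where 8.20% of all genes were. No glia, photoreceptor or muscle marker passed by those p-values. The part of these tissues in the results below was not tested. In these bulk samples, fewer cells of a type and less RNA per cell cannot be told apart.

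None of the 8 members with an FPKM value in every library passed the test between the foods, and mTor could not be tested in this way. The test was limma on log2(FPKM + 1) across 10366 genes with a Benjamini-Hochberg adjusted p of 0.05, which 491 genes (4.74%) passed. One member, REPTOR, had an unadjusted p under 0.05 in limma, against 2183 of all genes tested (21.1%), and the p-values deposited by the authors, after adjustment over these genes, also gave 1 member, REPTOR, as lower. By those p-values 16.9% of the tested genes passed in either direction and 8.70% as lower. The median log2 fold change of the 8 members was -0.02, beside 0.02 over all genes tested, and their median change regardless of sign was 0.05, beside 0.08. Of the 8, 3 had a positive and 5 a negative fold change. The libraries of the 2 foods did not overlap for 1 member, REPTOR, while 28.0% of all tested genes showed no overlap.

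**Figure D1:**
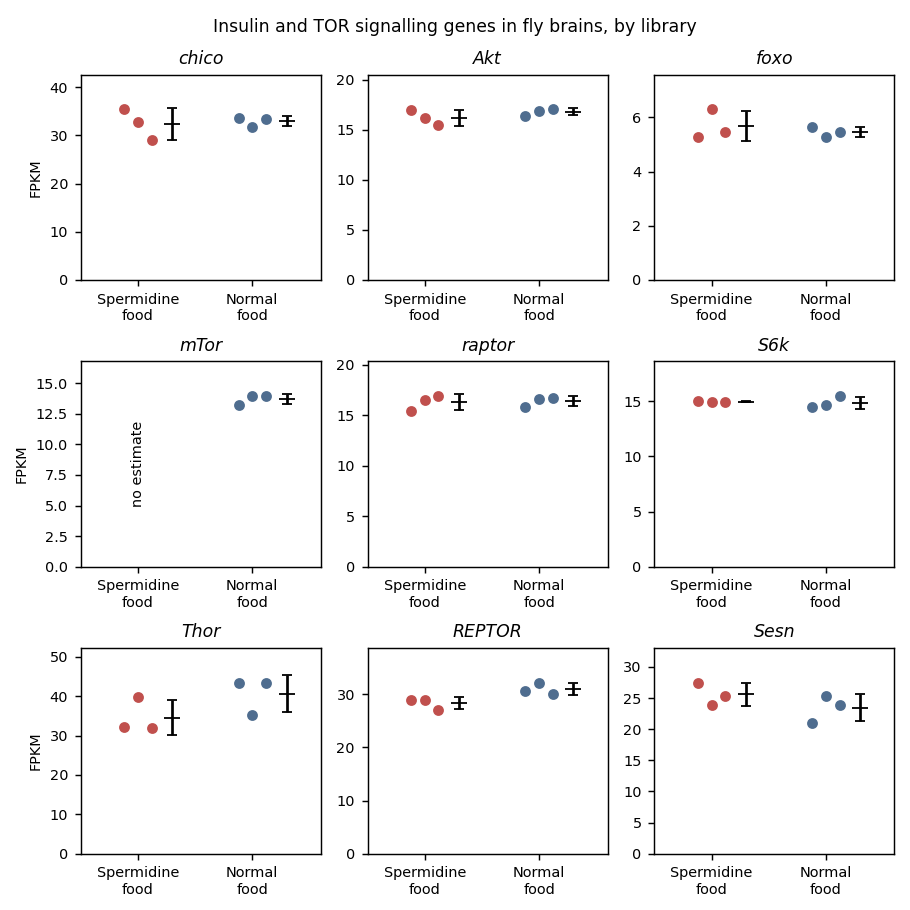
FPKM of the 9 genes in each library (vertical axis from 0, 1 panel per gene), with the 3 spermidine food libraries at left and the 3 normal food libraries at right of each panel. Points are libraries in the order of replicates 1 to 3, and bars are mean and SD. The foods overlap in all panels with values for both except REPTOR, and mTor has no FPKM estimate on spermidine food.

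Levels of the members were compared by FPKM, which is per transcript length. On spermidine food Thor averaged 34.6 FPKM, chico 32.5, REPTOR 28.3, Sesn 25.6, raptor 16.3, Akt 16.2, S6k 14.9 and foxo 5.68 FPKM. On normal food the order was Thor at 40.6, chico at 33.0, REPTOR at 31.0, Sesn at 23.4, Akt at 16.8, raptor at 16.4, S6k at 14.9, mTor at 13.7 and foxo at 5.46 FPKM. Ranges of neighbours in this order overlapped between Thor, chico, REPTOR and Sesn on spermidine food, and between chico and REPTOR on normal food. Akt and raptor overlapped on both foods. The gap above foxo was clear of the spread, with S6k 2.63 times foxo on spermidine food and mTor 2.51 times foxo on normal food. Thor had a higher mean FPKM than 75.2% of the tested genes and foxo than 26.9%.

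The gene chico (FBgn0024248, chromosome arm 2L, 10242512 to 10247078, minus strand), whose product links the insulin receptor to PI3-kinase, had 35.5, 32.9 and 29.0 FPKM in spermidine food replicates 1, 2 and 3. In normal food replicates 1, 2 and 3 it had 33.6, 31.9 and 33.5 FPKM. The normal food libraries lay inside the range of the spermidine food libraries, which were more spread. Its mean was 32.5 ± 3.31 FPKM on spermidine food and 33.0 ± 0.98 FPKM on normal food (SD, n = 3 each). The log2 fold change was -0.03 ± 0.08 (SE; limma, adjusted p = 0.875), with a 95% interval from 0.865 to 1.11 times on the FPKM + 1 scale. It turned positive, at 0.05, without spermidine food replicate 3.

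Akt (FBgn0010379, 3R, 16099228 to 16105670, plus strand) encodes the kinase that passes the insulin signal to foxo and to TOR. It had 17.0, 16.1 and 15.5 FPKM on spermidine food and 16.4, 16.9 and 17.1 FPKM on normal food. The highest library was on normal food and the lowest on spermidine food, but spermidine food replicate 1 lay within the normal food range, so the groups overlapped. Its log2 fold change was -0.05 ± 0.05 (SE; limma, adjusted p = 0.601), and the 95% interval ran from 0.891 to 1.05 times.

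The transcription factor gene foxo (FBgn0038197, 3R, 14056945 to 14087978, plus strand), which activates InR and Thor when insulin signalling is low, was the member of lowest level. Its libraries held 5.27, 6.32 and 5.47 FPKM on spermidine food and 5.65, 5.28 and 5.46 FPKM on normal food. Spermidine food replicate 2 was the highest of the 6, and the other two spermidine food libraries fell near or within the normal food range. A log2 fold change of 0.05 ± 0.08 was found (SE; limma, adjusted p = 0.779), with an interval from 0.910 to 1.17 times. Without spermidine food replicate 2 it was -0.02.

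The kinase of the complex itself, mTor (FBgn0021796, 2L, 13004480 to 13013197, plus strand), had 13.2, 13.96 and 13.98 FPKM on normal food, a mean of 13.7 ± 0.42 FPKM (SD, n = 3). On spermidine food the authors' software marked its FPKM as failed in all 3 libraries and listed it at 0, so no FPKM comparison was possible. The authors' deposited table gives mean normalized counts of 6119 on spermidine food and 5696 on normal food, which is 7.44% higher on spermidine food, so its reads were counted there despite the listed 0. Its deposited unadjusted p was 0.0253, and adjusted over the 10869 genes with a mean normalized count of at least 10 in either group it was 0.120, while 16.4% of those genes passed 0.05, 8.05% as higher and 8.38% as lower on spermidine food. A spread between libraries cannot be given for these counts.

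The gene of the adaptor that brings substrates to the kinase, raptor (FBgn0029840, X, 6082634 to 6090201, minus strand), had 15.5, 16.5 and 17.0 FPKM on spermidine food. It had 15.9, 16.6 and 16.7 FPKM on normal food, within the spermidine food range. Its difference was -0.01 ± 0.05 on the log2 scale (SE; limma, adjusted p = 0.942), and the interval ran from 0.915 to 1.08 times. Without spermidine food replicate 1 or normal food replicate 3 the sign turned, to 0.03 and 0.0058. In the annotation, 23.5% of the exon bases of raptor are shared with Mipp2 on the same strand, which had mean normalized counts of 157 and 149.7 on spermidine and normal food in the authors' deposited table, against 4400.4 and 4377 for raptor.

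Of the 2 substrates of the complex among the members, S6k (FBgn0015806 in the table, 3L, 5797549 to 5810931, minus strand) had 15.0, 14.9 and 14.9 FPKM on spermidine food and 14.4, 14.6 and 15.5 FPKM on normal food. The spermidine food libraries differed from each other by less than the normal food libraries did, with SDs of 0.041 and 0.56 FPKM (n = 3 each). The log2 fold change was 0.01 ± 0.04 (SE; limma, adjusted p = 0.936), within 0.936 to 1.08 times. It was -0.01 under median-ratio scaling or without normal food replicate 1, and -0.0020 without normal food replicate 2.

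Thor (FBgn0261560, 2L, 3478434 to 3479612, plus strand), the translational inhibitor, had 32.1, 39.8 and 31.8 FPKM on spermidine food and 43.5, 35.2 and 43.2 FPKM on normal food. In each group replicate 2 went against the other two, so that spermidine food replicate 2 was above normal food replicate 2 and the groups overlapped. The mean was 34.6 ± 4.52 FPKM on spermidine food and 40.6 ± 4.69 FPKM on normal food (SD, n = 3 each). Its log2 fold change of -0.23 ± 0.12 (SE) was the largest in size of the 8 members and did not pass (limma, adjusted p = 0.331), and the interval ran from 0.702 to 1.04 times. Without spermidine food replicate 2 it was -0.33 and without spermidine food replicate 3 it was -0.18, with limma adjusted p-values of 0.184 and 0.569. The authors' deposited table gives Thor mean normalized counts of 1029 on spermidine food and 1223 on normal food, with an unadjusted p of 0.0120 and an adjusted p of 0.0656. Summed fat body markers were 10507, 9629 and 10639 FPKM in the same spermidine food libraries, and 2511, 1909.5 and 2277 FPKM in the normal food libraries. Replicate 2 was thus lowest in this sum on both foods. It was not lowest in every marker, as on spermidine food it was the highest in Yp2 (4061 FPKM) and apolpp (236 FPKM). The part of the fat body in the values of Thor was not tested.

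REPTOR (FBgn0039209, 3R, 24557368 to 24582864, minus strand) encodes the bZIP factor that acts when TOR complex 1 is inactive. It had 29.0, 28.9 and 27.1 FPKM on spermidine food and 30.7, 32.2 and 30.0 FPKM on normal food. Every spermidine food library lay below every normal food library. The mean was 28.3 ± 1.11 FPKM on spermidine food and 31.0 ± 1.15 FPKM on normal food (SD, n = 3 each). The difference of -0.12 ± 0.05 on the log2 scale (SE) did not pass over all genes (limma, unadjusted p = 0.0344, adjusted p = 0.198), and the interval ran from 0.850 to 0.991 times. The sign held without each library in turn, between -0.15 and -0.09, with limma adjusted p-values from 0.235 to 0.403. In counts REPTOR was lower by more, with 6316 on spermidine food and 7302 on normal food in the authors' deposited table. The deposited signed fold change is -1.15, and its p, adjusted over the 10366 genes, was 0.00132. Neuron markers were lower in the same counts, as given above, and their part in this difference was not tested.

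Sesn (FBgn0034897, 2R, 23713900 to 23734846, plus strand), the stress-responsive inhibitor of TOR complex 1, had 27.5, 23.9 and 25.4 FPKM on spermidine food. On normal food it had 21.1, 25.3 and 23.9 FPKM. The groups overlapped, and normal food replicate 1 was the lowest of the 6. The log2 fold change was 0.12 ± 0.08 (SE; limma, adjusted p = 0.443), with an interval from -0.07 to 0.32 on the same scale, and it was 0.05 without normal food replicate 1. In the later annotation used for exon overlaps, 65.1% of its exon bases are shared with CG46429 on the same strand. The deposited values rest on older gene models. Unlike for Mipp2, no mean normalized count of CG46429 was found, so it may not have been a separate gene in those models. Its part in the values of Sesn was not tested.

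**Figure D2:**
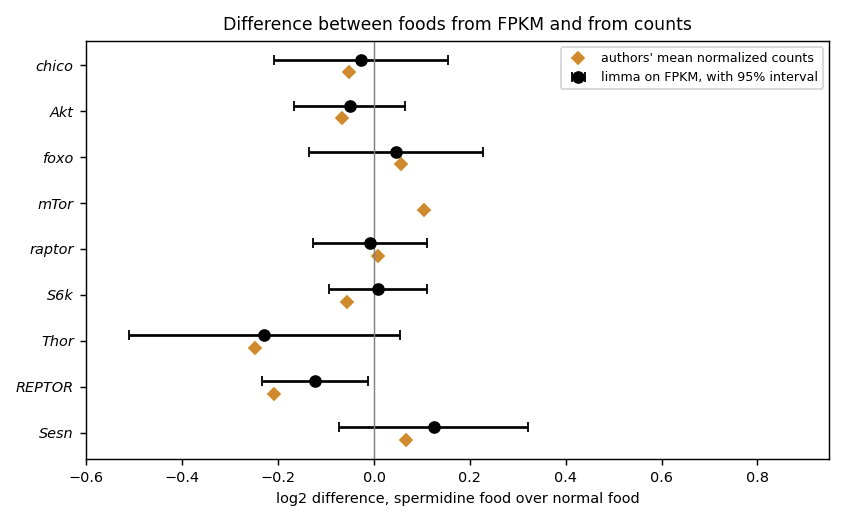
Log2 difference between spermidine food and normal food (horizontal axis) for each member. Black points are limma fold changes on log2(FPKM + 1) with their 95% interval, and orange diamonds are log2 ratios of the authors' mean normalized counts, which have no interval. Only the interval of REPTOR lies wholly below 0, and mTor has a count ratio alone.

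The FPKM values and the counts gave the same sign for 6 of the 8 members, and the exceptions were S6k and raptor. REPTOR had a log2 count ratio of -0.21 beside -0.12 by FPKM, and Thor -0.25 beside -0.23. S6k had a count ratio of -0.06 beside 0.01 by FPKM, and raptor 0.01 beside -0.01. Those of chico, Akt, foxo and Sesn were -0.05, -0.07, 0.06 and 0.07 on the log2 scale. Per kilobase of annotated exons, mTor had 766 normalized reads on spermidine food and 713 on normal food. Akt had 782 and 819 and S6k 724 and 753, so mTor lay between them on spermidine food and below both on normal food.

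**Figure D3:**
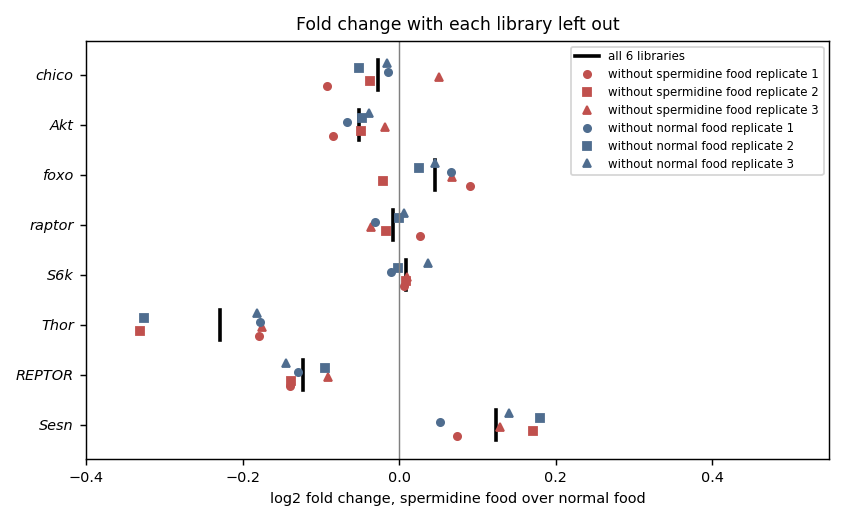
Limma log2 fold change of the 8 members tested (horizontal axis) with all 6 libraries (black bar) and with each library left out (red for a spermidine food library, blue for a normal food library). Thor, REPTOR and Akt stay below 0 and Sesn above 0 in all 6 fits, while chico, foxo, raptor and S6k cross 0.

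The pattern of REPTOR over the 6 libraries was closest to those of nAChRalpha6, a subunit of the nicotinic acetylcholine receptor, CG42402 and seq. Their Pearson r on log2(FPKM + 1) with REPTOR was 0.985, 0.981 and 0.981, the highest among 9621 tested genes with a mean of at least 1 FPKM. The likeness is a description over 6 libraries, and 124 genes had an r above 0.9. Of these 3, nAChRalpha6 had 74.3, 72.6 and 67.2 FPKM on spermidine food and 81.8, 85.0 and 78.9 FPKM on normal food, and it did not pass the test (limma, adjusted p = 0.0888).

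Other genes of the pathway were read from lists ordered by role, and 2 of the 66 tested passed in limma, Ilp6 higher and Maf1 lower. Over all genes tested 3.21% were higher and 1.52% lower. The median log2 fold change of the 66 was 0.02, the same as over all genes tested. Deposited p-values adjusted over the same 10366 genes gave 4 of the 66 as higher, where 8.20% of all were, and 9 as lower, where 8.70% of all were. By the same p-values 4 of 5 neuron markers were also lower, and 5 fat body and 3 haemocyte markers were higher. The part of these tissues was not tested.

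Upstream of TOR, none of 15 tested genes passed in limma, and 1 of them had an unadjusted p under 0.05, where 21.1% of all genes did. By the adjusted deposited p-values 4 of the 15 were lower, where 8.70% of all genes were. Their median log2 fold change was 0.02. The 14-3-3 protein gene 14-3-3epsilon, whose product binds phosphorylated foxo, had 450.1, 436 and 425 FPKM on spermidine food and 403, 405 and 423 FPKM on normal food. Every spermidine food library was higher, without passing (log2 fold change 0.09 ± 0.05, SE; limma, adjusted p = 0.324). Its counts went the other way, at 39503 on spermidine food and 40238 on normal food in the authors' deposited table.

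InR, the receptor at the head of the pathway and a target of foxo, had 9.07, 8.002 and 8.44 FPKM on spermidine food and 9.31, 10.3 and 10.2 FPKM on normal food. It was lower in all 3 spermidine food libraries without passing the test (log2 fold change -0.20 ± 0.07, SE; limma, adjusted p = 0.147), while the authors' deposited p, adjusted, was 0.00316. In those deposited values Pi3K21B, the adaptor subunit of PI3-kinase, sgg, the fly GSK3, and drk, the Grb2 adaptor, were also lower. Their limma fold changes were -0.03, -0.03 and 0.00 on the log2 scale (adjusted p = 0.684, 0.622 and 0.992). Annotated exons of drk share 19.6% of their bases with mars on the other strand, and the sources used here do not say whether counting used strand.

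Among TOR complex genes and outputs, 1 of 19 fell in limma, where 1.52% of all genes did, and none rose, with a median of -0.02. This was Maf1 (FBgn0058196, 2R, 1512810 to 1527095), a repressor of RNA polymerase III that TOR signalling holds back, with 132, 128 and 125 FPKM on spermidine food and 168, 161 and 148 FPKM on normal food. Its log2 fold change was -0.30 ± 0.06 (SE; limma, adjusted p = 0.0368), and the call ended when any library other than normal food replicate 3 was left out, with limma adjusted p-values between 0.0666 and 0.143. By the adjusted deposited p-values 3 of the 19 were lower (Maf1, Tif-IA and unk), where 8.70% of all genes were, and none was higher. The deposited signed fold changes of Maf1 and unk are -1.21 and -1.35. Tif-IA, a factor of ribosomal RNA transcription, had a log2 fold change of -0.15 ± 0.04 (SE; limma, adjusted p = 0.112), and its adjusted deposited p was 0.00414. For unk, a zinc finger gene placed downstream of TOR in the fly eye, FPKM and counts went apart. It had 33.8 ± 0.69 FPKM on spermidine food and 34.4 ± 1.11 FPKM on normal food (SD, n = 3 each), whereas the authors' deposited table has 6042 and 8210 mean normalized counts. The partners of mTor in its complexes, Lst8 and rictor, had log2 fold changes of -0.13 ± 0.07 and 0.01 ± 0.04 (SE; limma, adjusted p = 0.373 and 0.910).

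**Figure D4:**
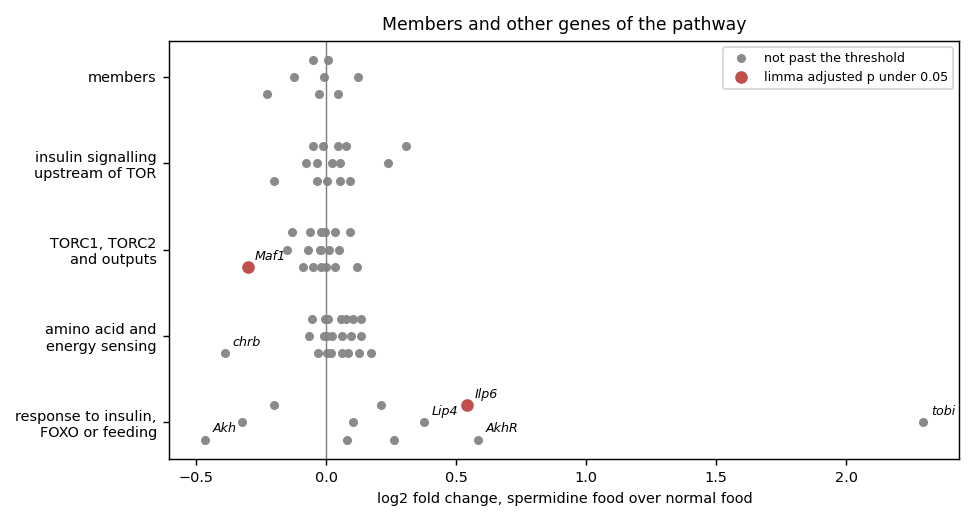
Limma log2 fold change, spermidine food over normal food (horizontal axis), of the members and of the other tested genes by role. Points are genes, spread vertically to keep them apart, red past an adjusted p of 0.05. The members lie between -0.23 and 0.12, and the 2 genes past the threshold are Maf1 and Ilp6.

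None of 22 genes of amino acid and energy sensing passed in limma, 2 of them with an unadjusted p under 0.05, and their median was 0.04. In the adjusted deposited p-values 2 were lower, where 8.70% of all genes were. These were chrb and scyl, the fly REDD1 homologues that inhibit TOR signalling under hypoxia and stress. chrb (FBgn0036165, 3L, 11487550 to 11499055) had 36.9, 38.2 and 37.1 FPKM on spermidine food and 56.6, 48.3 and 43.6 FPKM on normal food, with no overlap (log2 fold change -0.39 ± 0.09, SE; limma, adjusted p = 0.0698). It passed when normal food replicate 3 was left out (limma, adjusted p = 0.0459). scyl had a log2 fold change of -0.07 ± 0.05 (SE; limma, adjusted p = 0.484). Iml1, a subunit of the GATOR1 complex that restrains TOR, had 0.14 ± 0.05 (SE; limma, adjusted p = 0.195).

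Of 11 genes known to respond to insulin, FOXO or feeding, with InR among them again, 1 rose in limma and none fell, with a median of 0.21. Over all genes tested 3.21% were higher. An unadjusted limma p under 0.05 was found for 6 of the 11, where 21.1% of all genes had one. The foods did not overlap for 5, where 28.0% of all genes showed no overlap. By the adjusted deposited p-values 4 were higher (Ilp6, tobi, Lip4 and Hnf4) and 1 lower (InR), where 8.20% and 8.70% of all genes were. The gene that rose in limma was Ilp6 (FBgn0044047, X, 2331493 to 2334658), an insulin-like peptide that is induced by foxo in the fat body. It had 12.6, 12.4 and 12.8 FPKM on spermidine food and 8.14, 8.06 and 8.90 FPKM on normal food. The log2 fold change was 0.54 ± 0.05 (SE; limma, adjusted p = 0.00718), which became an adjusted p of 0.0509 without spermidine food replicate 3. The glucosidase gene tobi, which responds to insulin-like peptides and adipokinetic hormone, had 27.4, 4.23 and 14.9 FPKM on spermidine food and 1.99, 2.15 and 1.11 FPKM on normal food, a log2 fold change of 2.30 ± 0.59 (SE; limma, adjusted p = 0.0891). It was called in 1 of 12 limma alternatives, without spermidine food replicate 2, at 2.97 and an adjusted p of 0.0153. Without spermidine food replicate 1 the log2 fold change was 1.75, and over the fits that left out a library the limma adjusted p reached 0.241. The authors' deposited p for tobi, adjusted, was 0.00759, with mean normalized counts of 1509 on spermidine food and 174 on normal food. The deposited signed fold change is only 1.32, much smaller than the ratio of these means. Lip4, a lipase gene activated by foxo, and Hnf4, a nuclear receptor of the fasting response, had log2 fold changes of 0.38 ± 0.13 and 0.21 ± 0.08 (SE; limma, adjusted p = 0.165 and 0.222). Both were also higher in the adjusted deposited p-values, Hnf4 at 0.0498, which became 0.0509 when adjusted over all genes with counts. Fat body markers were higher in the same spermidine food libraries, as given above, and their part in these values was not tested.

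Of 4 markers of the insulin-producing neurons, 1 rose in limma, where 3.21% of all genes tested did. By the adjusted deposited p-values 2 of the 4 were higher, where 8.20% of all genes were. Ilp2 had 897, 794 and 803 FPKM on spermidine food and 672, 596 and 543 FPKM on normal food, with no overlap (log2 fold change 0.46 ± 0.10, SE; limma, adjusted p = 0.0508). Ilp3 and Dh44-R1 had log2 fold changes of 0.11 and 0.02. Ilp5 had 500, 337 and 406 FPKM on spermidine food and 218, 193 and 145 FPKM on normal food (limma, adjusted p = 0.0301). Whether the share of these neurons in the samples differed was not tested.

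**Figure D5:**
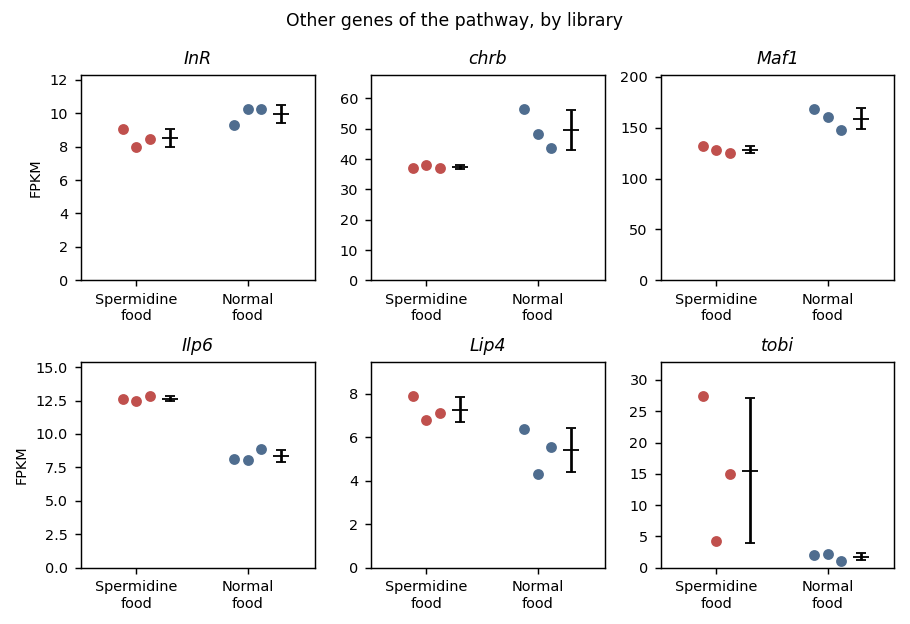
FPKM by library (vertical axis from 0) of InR, chrb, Maf1, Ilp6, Lip4 and tobi, with spermidine food at left and normal food at right of each panel. Points are libraries in the order of replicates 1 to 3, and bars are mean and SD. The groups do not overlap in any of these panels, and tobi spreads from 4.23 to 27.4 FPKM on spermidine food. The panels show genes named for their small p-values, so the lack of overlap follows in part from this choice. Of the 66 other pathway genes tested 15 showed no overlap, as did 28.0% of all genes tested.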

How the data were processed

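A stranded mRNA kit was used for all libraries, per the labels' protocols. The submitters' processing notes list HTSeq, Cufflinks and DESeq with no roles or versions, and the aligner was not given in the sources used here. One deposited sheet holds FPKM per gene and library with a status, on Ensembl build 82 models per the file headers. It also holds the authors' mean normalized count per group (a signal without values for single libraries), a signed fold change (a score, for some genes smaller in size than the ratio of means) and an unadjusted p-value. The other sheets are subsets of it or empty. Coordinates are the table's, and those of all 9 members were the same in the Ensembl release 115 annotation of BDGP6, which gave exon overlaps. Current symbols were found for 17179 identifiers, and 304 kept the table's own. Susi and PRAS40 of the lists were not matched, and 1 listed gene is not reported here.

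Genes with a status other than OK in any library (215) were left out, and so were genes that reached an FPKM of 0.5 in fewer than 3 of 6 libraries. limma 3.58.1 in R 4.3.3 was run on log2(FPKM + 1) with an intensity trend, two-sided, without covariates, with Benjamini-Hochberg adjustment. Fold changes on that scale understate those of low genes. The fit was tested on simulated data with changes larger than those of the members, so this gives no measure of power for differences of their size. An exact permutation test of 3 against 3 libraries cannot give a p below 0.1. Without depths per library no counting intervals are given. The labels name replicates without separate cultures, so the spread behind each p-value is that of these libraries and may be technical.

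The members, lists and tests were chosen with earlier results of these data known. Other pathway genes are named where they passed in limma or in the deposited p-values adjusted over the same genes, or had the 2 smallest p of their list. The genes most like REPTOR, the member of smallest p, are the 3 of highest r. Of each list of cell type markers the 2 genes of highest level are named. Lst8, rictor, Mipp2, CG46429, mars, Lamtor2 and CG30120 were named beyond these rules after their values were seen. So were the fat body genes other than Yp2 and Yp3, and elav, fne, Ilp3 and Dh44-R1.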

Additional observations from a re-analysis of the deposited data

How the results depend on the processing

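No member passed under any of the 12 limma alternatives (pseudocount 0.1, no filter, a mean of at least 1 FPKM, median-ratio scaling, no trend, replicate block, each library left out), and 1, REPTOR, passed by the authors' deposited p-values, adjusted over the same genes or over all genes with counts (an alternative chosen after seeing the data). Of the other pathway genes, 2 passed, against 1 without a filter, without a trend or with the replicate block, 13 by the deposited p-values and 12, without Hnf4, when those were adjusted over all genes with counts. With a library left out between 0 and 3 passed (0 when spermidine food replicate 3 was omitted, and 1 when its replicate 1 or normal food replicate 1 or 2 was). Without a filter, with more genes tested, Maf1 had a limma adjusted p of 0.107, and without a trend Maf1 had 0.0550. Over all genes, 491 passed, against 67 without a filter, 257 with the replicate block, 1752 and 1786 by the deposited p-values, and between 55 and 322 with a library left out, lowest without spermidine food replicate 3. By the deposited values 850 of 1752 were higher, against 333 of 491 in limma. The log2 of the deposited fold change of drk was -0.23 under either adjustment, against 0.00 by FPKM. The cause was not tested. Same-numbered libraries did not deviate together (correlations of -0.05, -0.10 and 0.02), and differently numbered ones ranged from -0.09 to 0.12. This gave no sign that the numbers pair the samples, but with 3 libraries per group it cannot exclude a shared preparation. The replicate block ended the call of Maf1 (limma adjusted p of 0.0545) and of no other member or pathway gene named in the report. Other scaling moved the median of all genes by less than 0.1. The 3 libraries per group and their spread limit what small differences of the members could be seen, and depth per library is unknown here.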

Other observations

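Akh, the gene of the adipokinetic hormone made in the corpora cardiaca beside the brain, had 57.9, 3.26 and 24.2 FPKM in spermidine food replicates 1, 2 and 3 and 39.9, 5.92 and 57.8 FPKM in normal food replicates 1, 2 and 3. Its replicate SD on the log2(FPKM + 1) scale, 1.80, was larger than that of 99.7% of the genes tested. That of S6k, 0.036, was larger than that of 9.11%, and that of Thor, 0.173, than that of 83.3%. These genes were chosen after their values were seen.

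All annotated exon bases of Lamtor2, a subunit of the complex that anchors TOR on lysosomes, are shared with CG30120 (100%). In the authors' deposited table Lamtor2 has a mean normalized count of 0 on both foods, and it was not tested.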
